A study of Mus musculus with 6 samples.

Results

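The transcripts described here are 10 markers of cardiac macrophages, namely Csf1r, Mrc1, Cx3cr1, Fcer1g, Tyrobp, C1qa, C1qb, C1qc, Lyve1 and Cd68. They were taken by gene symbol from a table of 15118 genes, and all 10 had a row in it. The table comes from total RNA of 6 whole mouse hearts, dissected at E12.5 (mid-gestation) and sequenced with 1 library per heart. The 3 Hif1a mutant hearts (numbered 5, 8 and 10) carried a null and a floxed allele of Hif1a, and the 3 control hearts (numbered 2, 5 and 9) carried a wild-type and a floxed allele. HIF1, the factor whose oxygen-sensitive chain Hif1a encodes, drives glycolytic genes when oxygen is low. All embryos were of the Black-Swiss strain and had 1 Nkx2-5 allele with the Cre recombinase and 1 wild-type Nkx2-5 allele. Cre made from this locus acts in progenitors of the heart and in its muscle, and the controls carry it too. Macrophages that the Cre did not reach would keep 1 working Hif1a allele in mutant hearts and 2 in control hearts, and which cells were recombined was not measured here. A heart number found in both genotypes is only a name. The labels say only that each library is 1 heart, and p-values measure how far these hearts spread, which may be partly technical.

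Macrophages enter the embryonic heart from yolk sac and fetal liver progenitors and settle there as resident cells that engulf debris and take part in coronary and lymphatic vessel growth. CSF1R is the receptor tyrosine kinase on which their survival depends, and CX3CR1 is the receptor of the chemokine fractalkine. FCER1G and TYROBP are short membrane adaptors that pass the signal of activating receptors to the kinase SYK. The 3 C1q chains assemble into the recognition part of the first complement complex, which marks cells and debris for uptake. MRC1 is the mannose receptor, LYVE1 binds hyaluronan and is also found on lymphatic endothelium, and CD68 is a glycoprotein of late endosomes and lysosomes. In RNA of whole hearts, fewer macrophages and less RNA per macrophage cannot be told apart.

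The promoters of a neighbouring pair of C1q genes and of Mrc1 are shown as examples. From heart to heart the C1q transcripts kept close to each other, and C1qb kept about as close to Csf1r. Mrc1 kept less close to Csf1r. RefSeq promoter sequence (GRCm38.p6) was at hand for 6 of the 10 genes (Mrc1, Cx3cr1, Fcer1g, C1qb, C1qc and Cd68), and the 250 bases before the annotated start were read 5′ to 3′ on the strand of the gene. Capitals mark GAGGAA, the core of sites bound by the myeloid factor PU.1, or its reverse complement TTCCTC. The windows are chr4:136886201-136886450 (minus strand) for C1qb, chr4:136892915-136893164 (minus strand) for C1qc and chr2:14229164-14229413 (plus strand) for Mrc1.
C1qb: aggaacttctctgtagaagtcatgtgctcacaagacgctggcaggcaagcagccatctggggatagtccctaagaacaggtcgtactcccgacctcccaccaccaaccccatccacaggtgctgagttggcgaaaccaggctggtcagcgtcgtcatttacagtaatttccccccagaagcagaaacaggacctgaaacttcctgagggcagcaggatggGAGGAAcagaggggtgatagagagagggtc
C1qc: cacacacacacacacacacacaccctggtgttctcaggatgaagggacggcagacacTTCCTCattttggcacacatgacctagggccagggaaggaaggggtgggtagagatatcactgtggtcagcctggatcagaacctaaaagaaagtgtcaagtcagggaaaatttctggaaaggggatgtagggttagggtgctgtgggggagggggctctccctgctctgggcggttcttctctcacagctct
Mrc1: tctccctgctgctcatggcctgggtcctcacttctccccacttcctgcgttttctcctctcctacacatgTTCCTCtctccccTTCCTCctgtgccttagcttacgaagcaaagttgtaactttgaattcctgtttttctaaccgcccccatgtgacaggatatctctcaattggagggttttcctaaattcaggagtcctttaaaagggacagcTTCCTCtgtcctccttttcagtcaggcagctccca
Searched on both strands, GAGGAA occurred in 4 of the 6 windows (C1qb, C1qc, Mrc1 and Cd68), against 23.3% of 32851 promoter windows of this length. It lay at positions −30 to −25 from the RefSeq start in C1qb, at −193 to −188 in C1qc, and at 3 places in Mrc1. The GENCODE M21 starts used for gene positions below differ. Those of C1qc (136893065) and Mrc1 (14229392) lie inside these windows. The positions thus depend on the annotation, and those of C1qb and C1qc are not compared. The core of the HIF response element, searched as ACGTG or GCGTG on both strands, occurred in 1 of the 6 windows (Fcer1g), against 38.6% of all windows. The AP-1 site TGANTCA occurred in 1 of the 6 (Cd68, at 2 places), against 6.75% of all windows. A match is a description of these letters and not a bound site.

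Values are in RPKM, which scales reads by exon length and by the depth of the library, so that levels of different genes are compared per length. Library depth, estimated from the steps between low values, was lowest in mutant 8 at 101500000 reads and highest in mutant 10 at 159200000 reads. Hif1a itself averaged 69.5 ± 12.6 RPKM in mutant and 51.3 ± 8.54 RPKM in control hearts (SD, n = 3 each), but the labels do not name the deleted exons, so a value over the whole gene does not check the deletion. All 6 HIF1 targets used to check the labels (Bnip3, Pdk1, Ldha, Pgk1, Slc16a3 and Ak4) fell in the mutant hearts (limma adjusted p under 0.05 each), with summed values of 508 to 586 RPKM in mutant and 1268 to 1389 RPKM in control hearts. The first principal component held 45.3% of the variance and had control 2 and mutant 8 at its ends, while mutant 5 correlated slightly more with control than with mutant hearts. Chromosome Y transcripts were near 0 in mutant 8 and control 9 and present in the other 4 hearts. Among 13080 genes tested, 107 passed a limma adjusted p of 0.05 (0.818%), 55 of them higher and 52 lower in mutant hearts, a split of 57 and 34 after median centring and of 54 and 79 after rescaling without haemoglobin genes.

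All 10 macrophage markers had lower mean RPKM in mutant than in control hearts, and none passed the threshold. The means of the mutant hearts lay between 46.3% (Lyve1) and 75.9% (Tyrobp) of the control means. None of the 10 reached a limma adjusted p of 0.05, which 0.818% of tested genes did and 0.398% did with a lower value in mutant hearts. Their limma adjusted p ran from 0.12 (Fcer1g) to 0.63 (Tyrobp). An unadjusted p under 0.05 was found for 8 of them, all lower, as had 11.2% of all tested genes in either direction and 6.26% with lower values. For 6 of them (Csf1r, Mrc1, Cx3cr1, Fcer1g, C1qc and Cd68) every mutant heart lay below every control heart, which held for 9.43% of tested genes, and for none was every mutant heart above every control heart, which held for 7.6%. All 10 log2 changes were negative, as were 57.4% over all tested genes, and 8 of them were below −0.5, as were 1.74%. Over the 6 hearts the markers moved together (median Pearson's r 0.93 over 45 pairs), so these counts are not 10 separate observations. The median over the markers was −0.69 on log2(RPKM + 1), where a change is understated for low values, and −0.03 over all tested genes. Mutant 10 was the lowest heart for 9 of 10 markers, and for 11.5% of tested genes. All 10 passed the filter of at least 1 RPKM in at least 3 hearts. C1qa, C1qc, Cx3cr1 and Lyve1 were under 1 RPKM in at least 1 mutant heart and at least 1 RPKM in all control hearts.

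**Figure D1:**
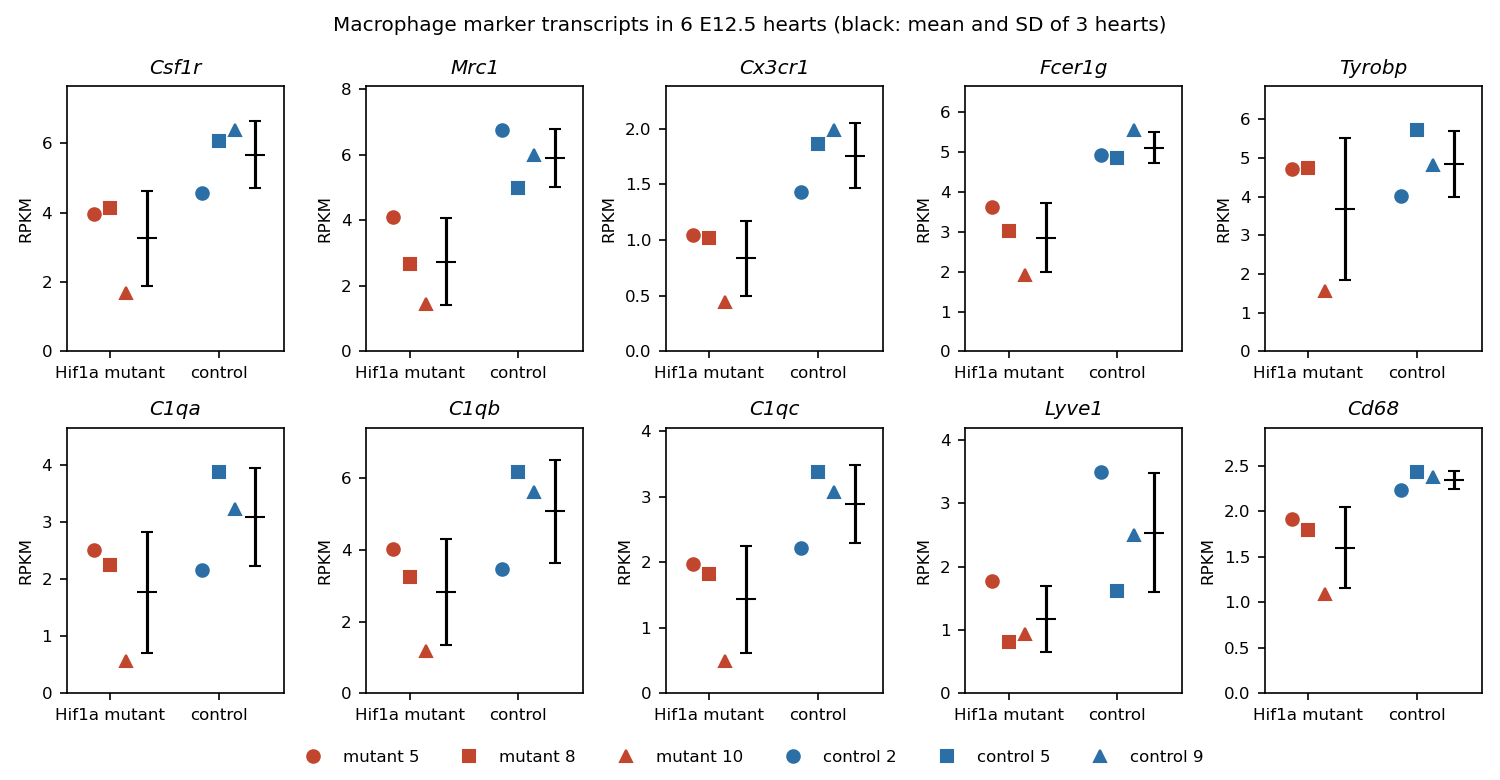
RPKM (vertical axes, each from 0) of the 10 markers in the 3 Hif1a mutant hearts (red, left) and the 3 control hearts (blue, right), with a symbol for each heart and the mean and SD of each group in black. Mutant 10 (red triangle) is the lowest heart in all panels but that of Lyve1, and control 2 (blue circle) is among the mutant hearts for Tyrobp, C1qa and C1qb.

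Csf1r (ENSMUSG00000024621, mm10 chromosome 18, 61100598 to 61132149, plus strand) measured 3.97, 4.12 and 1.69 RPKM in mutants 5, 8 and 10, against 4.56, 6.06 and 6.37 RPKM in controls 2, 5 and 9. The genotypes did not overlap, but mutants 5 and 8 stood closer to control 2 than to mutant 10. The means were 3.26 ± 1.36 RPKM in mutant and 5.67 ± 0.970 RPKM in control hearts (SD, n = 3 each), a log2 change of −0.69 ± 0.24 SE with a limma adjusted p = 0.32. Csf1r shares 873 exon bases with Hmgxb3 on the opposite strand, which measured 3.85 RPKM in mutant and 3.88 RPKM in control hearts, and the labels do not say whether reads were counted by strand.

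Mrc1 (ENSMUSG00000026712, chromosome 2, 14229392 to 14332057, plus strand) had the most negative change on log2(RPKM + 1) among the 10 markers, while by the ratio of mean RPKM it came just after Lyve1. It measured 4.09, 2.67 and 1.46 RPKM in mutants 5, 8 and 10, against 6.75, 4.98 and 5.98 RPKM in controls 2, 5 and 9. No mutant heart reached the lowest control heart, which here was control 5. The log2 change was −0.94 ± 0.23 SE (95% interval −1.46 to −0.41, limma adjusted p = 0.15). Without mutant 5 it was −1.19 and past the threshold (limma adjusted p = 0.021).

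Cx3cr1 (ENSMUSG00000052336, chromosome 9, 119901616 to 120069879, minus strand) was the marker with the lowest level. It measured 1.04, 1.02 and 0.442 RPKM in mutants 5, 8 and 10, against 1.43, 1.86 and 1.99 RPKM in controls 2, 5 and 9. The mean of the mutant hearts was 47.5% of the control mean, and its log2 change was −0.60 ± 0.15 SE (limma adjusted p = 0.16). Its exons share 78 bases with the antisense gene Gm33858.

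Lyve1 (ENSMUSG00000030787, chromosome 7, 110850607 to 110863239, minus strand) had a different order of hearts. It measured 1.78, 0.811 and 0.936 RPKM in mutants 5, 8 and 10, against 3.49, 1.62 and 2.50 RPKM in controls 2, 5 and 9. The genotypes overlapped, since mutant 5 was above control 5. Mutant 8 was the lowest heart and control 2 the highest. The log2 change between genotypes was −0.69 ± 0.22 SE (limma adjusted p = 0.26).

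The adaptor Fcer1g (ENSMUSG00000058715, chromosome 1, 171229572 to 171234365, minus strand) had the smallest adjusted p of the 10 markers. It measured 3.63, 3.02 and 1.91 RPKM in mutants 5, 8 and 10, against 4.93, 4.84 and 5.55 RPKM in controls 2, 5 and 9. The control hearts were close together and all above the mutant hearts. The means were 2.86 ± 0.871 RPKM in mutant and 5.11 ± 0.386 RPKM in control hearts (SD, n = 3 each), a log2 change of −0.69 ± 0.16 SE with a 95% interval of −1.05 to −0.32 (limma adjusted p = 0.12). Without mutant 5 the change was −0.83 and past the threshold (limma adjusted p = 0.036).

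Tyrobp (ENSMUSG00000030579, chromosome 7, 30413760 to 30417585, plus strand) differed from Fcer1g in that the genotypes overlapped. It measured 4.71, 4.75 and 1.57 RPKM in mutants 5, 8 and 10, against 4.01, 5.71 and 4.82 RPKM in controls 2, 5 and 9. Mutants 5 and 8 were above control 2, and mutant 10 alone lay outside the control range. The log2 change was −0.40 ± 0.28 SE with a 95% interval of −1.05 to 0.24 (limma adjusted p = 0.63), and −0.02 without mutant 10.

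Of 20 receptors and kinases that work with these adaptors 12 had a row and 7 were tested. None passed a limma adjusted p of 0.05, and 4 had an unadjusted p under 0.05, all 4 lower. Their median log2 change was −0.41, with 6 negative. The inositol phosphatase Inpp5d measured 0.757, 0.850 and 0.813 RPKM in mutants 5, 8 and 10, against 1.38, 1.47 and 1.34 RPKM in controls 2, 5 and 9 (limma adjusted p = 0.11). In contrast to the adaptors, Inpp5d was nearly the same in the 3 mutant hearts. Inpp5d passed the filter of at least 1 RPKM in at least 3 hearts only through its control hearts. Its separation of the genotypes was thus fixed by the filter. The receptor Fcgr3 measured 2.00, 1.26 and 0.323 RPKM in mutants 5, 8 and 10, against 1.68, 2.68 and 3.07 RPKM in controls 2, 5 and 9. Fcgr3 and Trem2 are also on the list of other macrophage genes. The kinase Lyn had a log2 change of −0.29 (limma adjusted p = 0.36). The phosphatase Ptpn6 had a log2 change of −0.41 (limma adjusted p = 0.34) and the phospholipase Plcg2 one of 0.20 (0.53).

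The 3 C1q genes lie next to each other on chromosome 4 and had the same lowest heart and the same 2 highest hearts. C1qa (ENSMUSG00000036887, 136895917 to 136898803, minus strand) measured 2.51, 2.24 and 0.558 RPKM in mutants 5, 8 and 10, against 2.16, 3.87 and 3.22 RPKM in controls 2, 5 and 9. C1qb (ENSMUSG00000036905, 136880129 to 136886187, minus strand) measured 4.02, 3.24 and 1.17 RPKM in mutants 5, 8 and 10, against 3.45, 6.15 and 5.61 RPKM in controls 2, 5 and 9. C1qc (ENSMUSG00000036896, 136889804 to 136893065, minus strand) measured 1.98, 1.83 and 0.499 RPKM in mutants 5, 8 and 10, against 2.22, 3.37 and 3.08 RPKM in controls 2, 5 and 9. Control 5 was the highest and mutant 10 the lowest heart for all 3 chains. Control 2 lay below mutants 5 and 8 for C1qa, between them for C1qb and above them for C1qc. The log2 changes were −0.62 ± 0.29 SE for C1qa, −0.73 ± 0.30 SE for C1qb and −0.73 ± 0.25 SE for C1qc, with limma adjusted p between 0.31 and 0.47. Without mutant 10 they were −0.25, −0.37 and −0.41.

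Other complement genes gave no common direction. Of 20 listed 10 had a row and 9 were tested, none with a limma adjusted p under 0.05 and 1 with an unadjusted p under 0.05. Their median log2 change was −0.03, with 5 negative and 4 positive. The C1 inhibitor gene Serping1 measured 4.85, 6.12 and 4.47 RPKM in mutants 5, 8 and 10, against 6.46, 7.10 and 8.11 RPKM in controls 2, 5 and 9 (limma adjusted p = 0.24). Its mutant hearts were all below its control hearts. The lectin pathway protease Masp1 (log2 change −0.33) and the complement inhibitor Cd55 (−0.26) overlapped between genotypes. Masp1 measured 1.15 RPKM in mutant 10 and 2.71 RPKM in control 5 and put the 6 hearts in the same order as C1qb, as did the C3a receptor gene C3ar1, which was too low to be tested.

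Cd68 (ENSMUSG00000018774, chromosome 11, 69664213 to 69666153, minus strand) had the change nearest to 0 on log2(RPKM + 1), just ahead of Tyrobp, which was nearest with a pseudocount of 0.1 and by the ratio of mean RPKM. It measured 1.92, 1.80 and 1.09 RPKM in mutants 5, 8 and 10, against 2.24, 2.43 and 2.38 RPKM in controls 2, 5 and 9. The control hearts were within a narrow band and the mutant hearts all below it, and its log2 change was −0.38 ± 0.14 SE (limma adjusted p = 0.33). Lysosomal genes found in most cells showed no such difference as a list. None of 21 tested passed a limma adjusted p of 0.05, 1 had an unadjusted p under 0.05 (the tetraspanin Cd63, at 168 RPKM in mutant and 136 RPKM in control hearts), and the median log2 change was 0.00, with 11 negative. The hydrolases Glb1 and Gusb had log2 changes of −0.22 and −0.16.

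**Figure D2:**
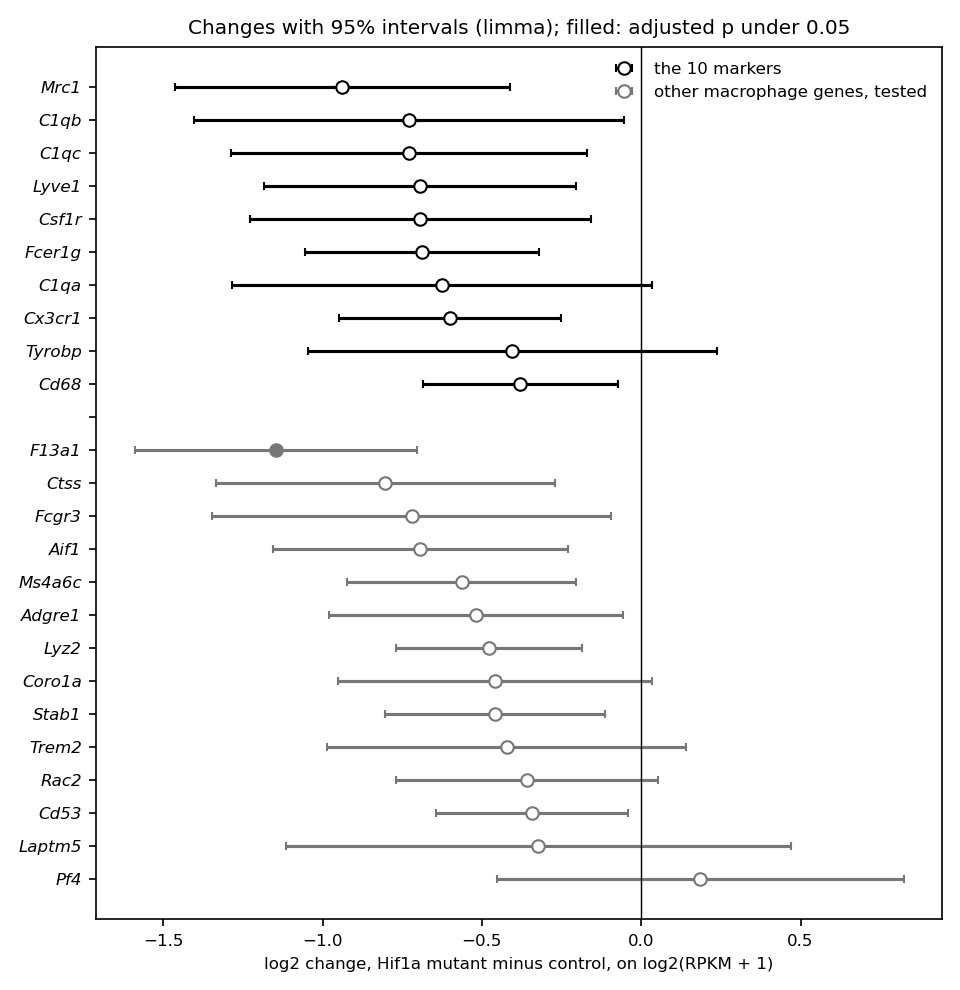
Log2 change (horizontal axis, Hif1a mutant minus control on log2(RPKM + 1)) with its 95% interval from limma, for the 10 markers (black) and the 14 tested genes of the list of other macrophage genes (grey). The intervals of Tyrobp and C1qa include 0 among the 10 markers, and F13a1 alone is filled, as the gene with an adjusted p under 0.05.

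Set against the control mean, the 10 markers took 59.3% to 97.3% in mutant 5, 32.0% to 97.9% in mutant 8 and 17.3% to 46.3% in mutant 10. Their medians were 70.6%, 63.5% and 27.5% in these hearts. Controls 2, 5 and 9 ranged from 68.1% to 138%, from 63.8% to 125% and from 98.6% to 113%. Mutants 5 and 8 were thus below 100% for all 10 markers. Mutant 5 lay inside the range of the control hearts for Tyrobp, C1qa, C1qb and Lyve1, and mutant 8 for Tyrobp and C1qa only. Mutant 10 was below the whole control range for all 10. The reads implied behind these values ran from 92 (C1qa in mutant 10) to 5669 (Mrc1 in control 2), which gives a counting SD of 10.4% and 1.33%.

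**Figure D3:**
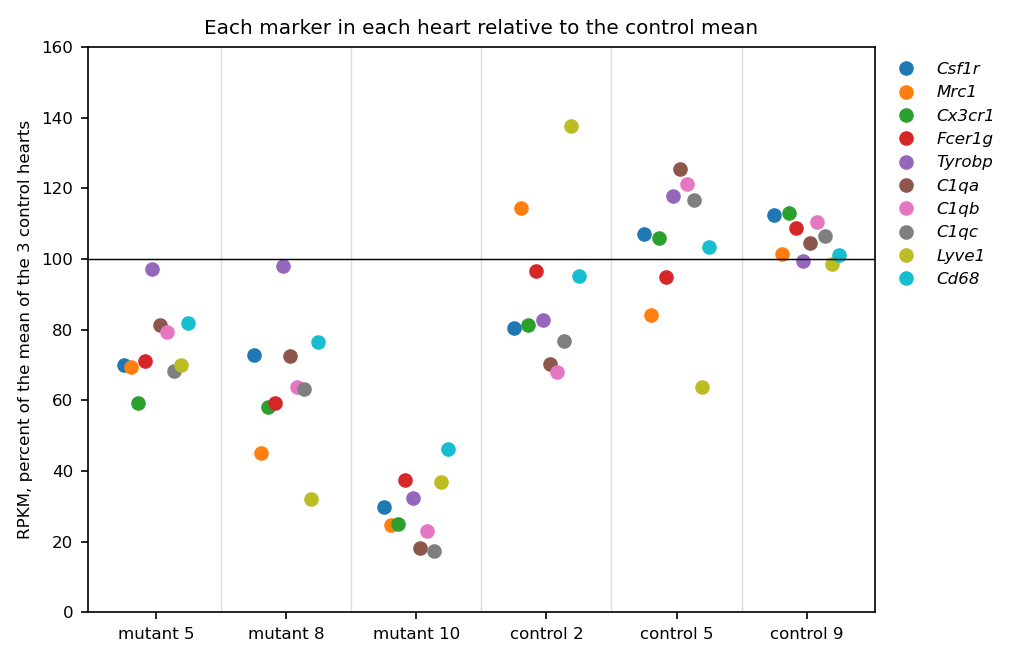
RPKM of each marker (a colour each) in each heart as a percentage of the mean of the 3 control hearts, with the Hif1a mutant hearts on the left and the line at 100%. All 10 markers are at or below 46.3% in mutant 10, and Lyve1 and Mrc1 stand at the other end from the C1q genes in controls 2 and 5.

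Ratios within a heart show which markers kept step. Cx3cr1 over Csf1r was 0.263, 0.248 and 0.261 in mutants 5, 8 and 10, against 0.313, 0.307 and 0.312 in controls 2, 5 and 9, the narrowest of 9 ratios formed. It was nonetheless lower in every mutant heart than in every control heart. C1qa over C1qb was 0.624, 0.693 and 0.478 in mutants 5, 8 and 10, against 0.627, 0.629 and 0.575 in controls 2, 5 and 9. This ratio of C1q chains spanned 1.45-fold over the 6 hearts and was lowest in mutant 10, where C1qa had 92 implied reads. C1qc over C1qb spanned 1.51-fold and C1qb over Csf1r 1.47-fold, so the C1q chains kept no closer to each other than C1qb did to Csf1r. Lyve1 over Csf1r was 0.448, 0.197 and 0.554 in mutants 5, 8 and 10, against 0.765, 0.267 and 0.393 in controls 2, 5 and 9. This ratio spanned 3.89-fold over the 6 hearts, the widest of the 9, and overlapped between genotypes. Mrc1 over Csf1r spanned 2.29-fold and was highest in control 2 (1.48), the heart where Lyve1 was highest too. Tyrobp over Fcer1g was 1.30, 1.57 and 0.821 in mutants 5, 8 and 10, against 0.813, 1.18 and 0.869 in controls 2, 5 and 9. The ratios are descriptions, and differences between them were not tested.

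Other genes of macrophages were taken from a list of 30 that leaves out the 10 markers. Of 22 with a row 14 were tested, and 1 fell with a limma adjusted p under 0.05, F13a1, the A chain of coagulation factor XIII. A further 8 had an unadjusted p under 0.05, the median log2 change was −0.47, and 13 of 14 were negative. F13a1 measured 2.09, 1.27 and 0.673 RPKM in mutants 5, 8 and 10, against 3.83, 4.43 and 3.84 RPKM in controls 2, 5 and 9. Its means were 1.34 ± 0.710 RPKM in mutant and 4.03 ± 0.346 RPKM in control hearts (SD, n = 3 each), giving a log2 change of −1.15 ± 0.20 SE (limma adjusted p = 0.036). Leaving out any heart but mutant 5 ended this call (limma adjusted p between 0.062 and 0.22), as did a pseudocount of 0.1 (0.067) and median centring (0.066).

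The lysozyme gene Lyz2 measured 5.63, 5.27 and 3.81 RPKM in mutants 5, 8 and 10, against 7.35, 6.91 and 7.20 RPKM in controls 2, 5 and 9 (limma adjusted p = 0.19). Ms4a6c, of the membrane-spanning 4A family, had a log2 change of −0.56 (limma adjusted p = 0.20). Adgre1, the F4/80 antigen, is listed under its older symbol Emr1 and measured 1.66, 1.13 and 0.411 RPKM in mutants 5, 8 and 10, against 1.66, 2.10 and 1.84 RPKM in controls 2, 5 and 9. Both Lyz2 and Adgre1 had no overlap between genotypes, though for Adgre1 mutant 5 and control 2 were almost equal. Over the 22 genes mutant 10 was the lowest heart for 21, as for 11.5% of all tested genes. The exception was Pf4, for which it was the highest. Of the 22, 8 were too low to be tested. Some of these, such as Itgam, had a row only through the control hearts, which favours a lowest value in a mutant heart.

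Transcription factors of the myeloid lineage gave no common direction. Of 12 listed 8 had a row and 7 were tested, of which 1 rose and none fell at a limma adjusted p of 0.05, with a median log2 change of −0.05. Of the 7, 5 were negative and 2 positive. Irf8 (−0.33), Spi1 (−0.28) and Maf (−0.26) were the most negative. Bhlhe41 (−0.05), Mef2c (−0.03) and Irf5 (0.09) had smaller changes. Cebpb, a factor that many cell types induce under stress, measured 3.01, 3.47 and 3.39 RPKM in mutants 5, 8 and 10, against 1.41, 1.11 and 1.83 RPKM in controls 2, 5 and 9. Every mutant heart was above every control heart (log2 change 0.82 ± 0.12 SE, limma adjusted p = 0.021). The call was lost without mutant 8 or 10 or control 2 or 5 (limma adjusted p between 0.056 and 0.12). Irf8, a factor of the macrophage lineage, measured 0.819, 0.788 and 0.481 RPKM in mutants 5, 8 and 10, against 1.23, 1.08 and 1.06 RPKM in controls 2, 5 and 9 (limma adjusted p = 0.31). Irf8 passed the filter only through its control hearts, which fixed its separation of the genotypes. Spi1, which encodes PU.1 and is listed as Sfpi1, measured 0.835 RPKM in mutant and 1.22 RPKM in control hearts and overlapped between them. Maf had a log2 change of −0.26 (limma adjusted p = 0.43).

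The ligands of these receptors were measured in the same libraries. Csf1, the CSF1R ligand, measured 2.46, 2.77 and 2.72 RPKM in mutants 5, 8 and 10, against 2.48, 2.34 and 2.89 RPKM in controls 2, 5 and 9, with a log2 change of 0.03 and a 95% interval of −0.20 to 0.26. Cx3cl1, the CX3CR1 ligand, measured 1.70, 2.07 and 2.07 RPKM in mutants 5, 8 and 10, against 1.28, 1.36 and 1.44 RPKM in controls 2, 5 and 9. The mutant hearts were thus all above the control hearts for Cx3cl1 (log2 change 0.32 ± 0.10 SE, limma adjusted p = 0.27), in the direction opposite to that of its receptor gene. Of 14 ligands, chemokines and receptors listed 6 were tested, none passed a limma adjusted p of 0.05 and 1 (Cx3cl1) had an unadjusted p under 0.05. Cxcl12 had a log2 change of −0.20 and Tgfb1 one of −0.08.

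Cells other than macrophages were followed with marker lists in the same hearts. The summed RPKM of the 10 macrophage markers was 29.7, 25.5 and 11.3 in mutants 5, 8 and 10, against 35.2, 40.9 and 41.5 in controls 2, 5 and 9. Of 8 megakaryocyte and platelet markers 6 had a row, and their sum was 4.29, 6.00 and 11.8 RPKM in mutants 5, 8 and 10, against 5.80, 5.23 and 5.38 RPKM in controls 2, 5 and 9. Mutant 10, where macrophage markers were lowest, was the highest heart for 5 of these 6 genes, as for 16.1% of all tested genes. Ppbp, a platelet chemokine, measured 1.35, 1.79 and 5.30 RPKM in mutants 5, 8 and 10, against 1.88, 1.05 and 1.40 RPKM in controls 2, 5 and 9. Pf4, which platelets and some macrophages express, measured 5.88, 8.42 and 16.3 RPKM in mutants 5, 8 and 10, against 7.81, 7.32 and 9.43 RPKM in controls 2, 5 and 9. Neither gene passed (limma adjusted p = 0.59 for Ppbp and 0.83 for Pf4), nor did Itga2b (0.96), which with Ppbp made up the tested genes of this list. The part of these cells in the macrophage values was not tested.

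**Figure D4:**
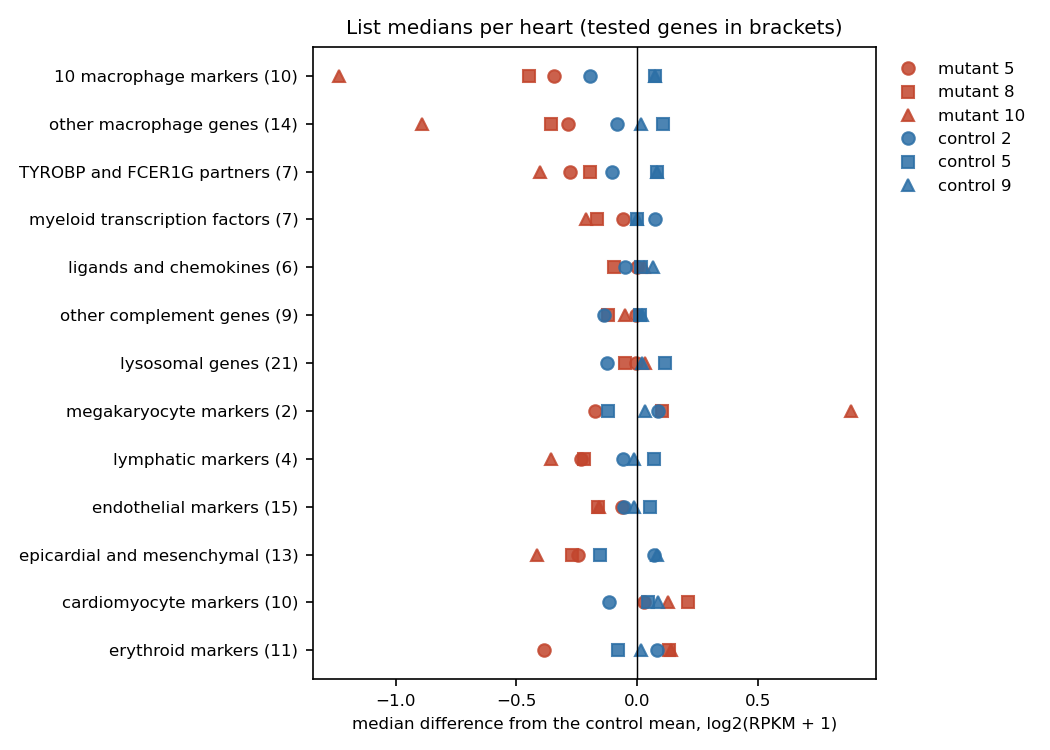
Median difference from the control mean on log2(RPKM + 1) (horizontal axis) over the tested genes of 13 lists, with a symbol for each heart (red Hif1a mutant, blue control). Mutant 10 is at −1.24 for the 10 macrophage markers and at 0.89 for the 2 tested megakaryocyte markers.

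Markers of lymphatic endothelium, which also expresses Lyve1, had 4 tested genes of 8 listed, none past a limma adjusted p of 0.05 and 2 with an unadjusted p under 0.05. Flt4, the receptor of VEGFC, measured 1.59, 2.09 and 1.66 RPKM in mutants 5, 8 and 10, against 2.39, 3.03 and 2.85 RPKM in controls 2, 5 and 9 (limma adjusted p = 0.17). Sox18 had a log2 change of −0.36 (limma adjusted p = 0.22) and Prox1, a factor that lymphatic endothelium and heart muscle share, one of −0.10. The summed RPKM of the 7 with a row was 15.4 to 17.9 in mutant and 19.3 to 21.1 in control hearts. Flt4 was highest in control 5, where Lyve1 was lowest among controls, while Prox1 was highest in control 2 and lowest in mutant 8, as Lyve1 was.

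Endothelial and endocardial markers had 15 tested genes, none past a limma adjusted p of 0.05, and a median log2 change of −0.14, with 11 negative and 4 positive. A limma unadjusted p under 0.05 was reached by 4 with lower and 1 with higher values, as by 11.2% of all tested genes. Cldn5 was at −0.79 (limma adjusted p = 0.064), Kdr at −0.33 and Flt1 at −0.24, while Plvap was at 0.32 and Ramp2 at 0.20. Epicardial and mesenchymal markers had 13, none past an adjusted p of 0.05, and a median of −0.32, with 12 negative and 1 positive. An unadjusted p under 0.05 was reached by 5, all lower. Col1a2 was at −0.83 (limma adjusted p = 0.11), Col1a1 at −0.51 and Dcn at −0.48. The summed RPKM of the 13 was 320 to 437 in mutant and 502 to 543 in control hearts. The largest values in this sum were those of the collagens Col3a1 and Col1a1. Wt1, Tbx18, Tcf21, Upk1b, Upk3b and Aldh1a2 overlapped between genotypes, with log2 changes from −0.25 (Tbx18) to 0.04 (Upk3b). Cardiomyocyte markers had 10, of which 1 (Nppa, at 0.75) rose at a limma adjusted p of 0.012, and a median of 0.11, with 7 positive and 3 negative. An unadjusted p under 0.05 was reached by 3, all higher. Myl7 was at 0.42 and Actc1 at 0.27, while Tnnt2 and Myh7 were at −0.05 and Myl2 at −0.09. Leaving out mutant 10, control 2 or control 5 ended the Nppa call (limma adjusted p of 0.052 to 0.074). Erythroid markers had 11, none past an adjusted p of 0.05, and a median of −0.07, with 8 negative and 3 positive. An unadjusted p under 0.05 was reached by 2, both lower. Hbb-bt was at −0.50 and Hbb-bs at −0.65, while Hbb-bh1 was at 0.88 and Hba-x at 0.21. Hbb-bh1 measured 24.3, 109 and 251 RPKM in mutants 5, 8 and 10, against 57.3, 31.4 and 58.4 RPKM in controls 2, 5 and 9. Mutant 10 was the highest heart for 8 of the 13 erythroid genes with a row, as for 16.1% of all tested genes.

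Other blood cells gave few values. Of 15 monocyte and neutrophil markers 5 had a row and 2 were tested (Plac8 at −0.31 and Fn1, also a matrix gene, at −0.09), and none passed a limma adjusted p of 0.05. Plac8 passed the filter only through its control hearts, which fixed its separation of the genotypes. Of 14 mast cell and lymphoid markers 2 had a row (Kit and Cpa3) and 1 was tested, Kit, with a log2 difference of −0.13 (limma adjusted p = 0.66). Of 10 liver, lung and neural markers 5 had a row and 3 were tested (Tubb3 at 0.46, Apoa2 at 0.42 and Stmn2 at 0.06), none past the threshold. The table holds only genes whose geometric mean reached 0.5 RPKM in at least 1 genotype.

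The genes whose values followed the 10 markers most closely over the 6 hearts were found by Pearson's r between their log2(RPKM + 1) and the mean of the markers, among 2334 tested genes with a mean of at least 1 and an SD of at least 0.2 on that scale. All 6 hearts and the difference between genotypes enter this r, which is given as a description. The 8 closest were Atp10d, Fabp4, Ctss, Emr1, Fcrls, Aldh1b1, Spint2 and Apln, with r between 0.973 and 0.985, and 1.59% of the 2334 reached 0.95. Ctss (cathepsin S) and Emr1 belong to the list of macrophage genes. Ctss measured 2.51, 2.10 and 0.834 RPKM in mutants 5, 8 and 10, against 2.86, 4.54 and 3.97 RPKM in controls 2, 5 and 9. Fcrls, an Fc receptor-like gene known from microglia, measured 2.15, 2.12 and 0.796 RPKM in mutants 5, 8 and 10, against 2.31, 2.78 and 3.20 RPKM in controls 2, 5 and 9. Fabp4, a fatty acid binding protein of capillary endothelium and macrophages, measured 11.7, 7.06 and 2.90 RPKM in mutants 5, 8 and 10, against 15.1, 22.8 and 18.2 RPKM in controls 2, 5 and 9. Apln, which encodes the vascular peptide apelin, measured 1.19, 0.909 and 0.419 RPKM in mutants 5, 8 and 10, against 1.84, 2.04 and 1.89 RPKM in controls 2, 5 and 9. None of the 8 passed a limma adjusted p of 0.05 (0.11 to 0.46). In all 8 every mutant heart was below every control heart, as in 9.43% of tested genes, but the marker mean itself separates the genotypes, so the choice by r largely fixes this.

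With each heart left out in turn, all 10 markers kept a negative log2 change. The median over the markers was −0.40 without mutant 10, against −0.84 and −0.76 without mutant 5 or 8 and −0.62 to −0.75 without a control heart. Tyrobp moved most, to −0.02 without mutant 10. Lyve1 differed from the other 9 in that it was closest to 0 without control 2 (−0.50), while each of the others was closest to 0 without mutant 10. In the 4 hearts with chromosome Y transcripts the median was −0.71, and with control 2 and mutant 8, the ends of component 1, both left out it was −0.82. No marker was past the threshold in those 4-heart comparisons.

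**Figure D5:**
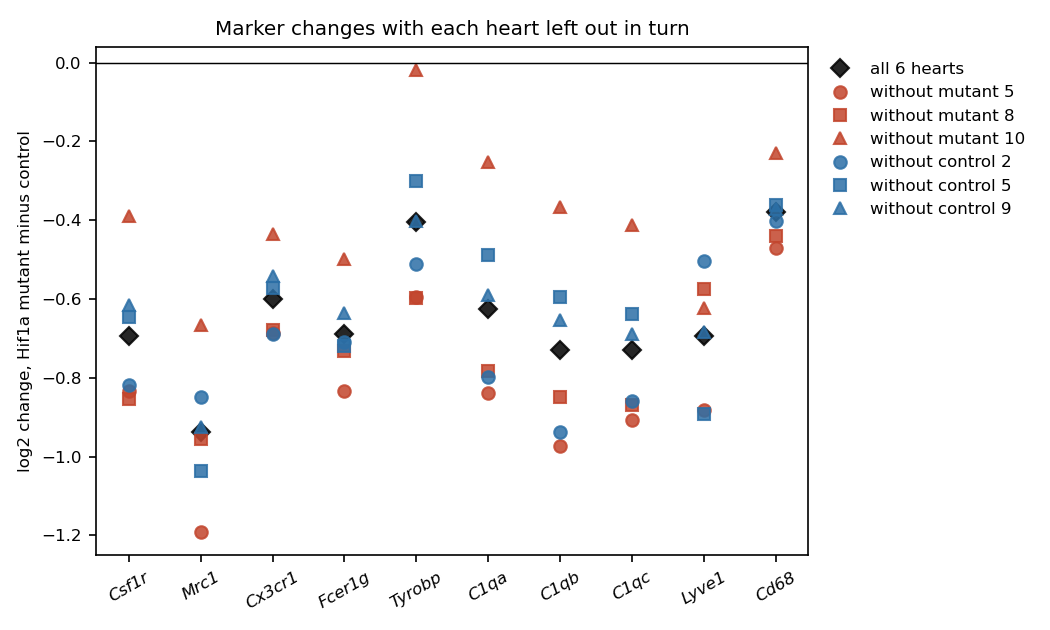
Log2 change of each marker (vertical axis, Hif1a mutant minus control on log2(RPKM + 1)) with all 6 hearts (black diamonds) and without each heart in turn (red for mutant, blue for control hearts). All points are below 0, and those without mutant 10 (red triangles) are nearest to 0 for all markers but Lyve1, with Tyrobp at −0.02.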

How the data were processed

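Total RNA of 6 hearts was sequenced with Illumina libraries, per the labels' protocols. The submitters' processing notes name Trim Galore, TopHat2 and mm10. No source used here gives the counter, its annotation or its strand setting. The deposited table holds RPKM values made by the authors, 1 column per heart. The header gives no unit. Unit and depth were inferred from the values: in single-exon genes 83.9% to 86.9% of low values lay within 0.1 of whole multiples of a step, against 19.4% to 20.1% (medians) for other steps. Reads behind a gene were estimated from this depth and the lengths of its exons in GENCODE M21, which also gave positions. Intervals from reads cover counting error only.

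Genes reaching 1 RPKM in 3 or more libraries (13080 of 15118) were tested with limma 3.58.1 under R 4.3.3 on log2(RPKM + 1), with the prior variance following mean level, two-sided, Benjamini-Hochberg adjusted over all tested genes, and checked on simulated data. The simulation gave every gene the same spread. It thus does not cover genes as spread as the markers (median SE 0.23, against 0.11 over all tested genes). Figures were drawn with matplotlib 3.10.9. The 10 markers, 16 further gene lists and the alternatives were chosen with earlier results of these data known. List genes were matched by current symbol through the Ensembl identifier. Named were all markers, list genes past the threshold, the 3 smallest p of each list and the 8 genes most like the markers, and a few others chosen after their values were seen. 1 gene that this rule names is not reported here.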

Additional observations from a re-analysis of the deposited data

How the results depend on the processing

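Over 16 alternative settings no marker changed sign. Of 150 marker values 148 kept their side of the threshold and 2 gained a call (Mrc1 and Fcer1g without mutant 5). No marker had at least 5 RPKM in at least 3 libraries, so that filter gave no marker values. With a pseudocount of 5 the median log2 change of the markers was −0.29, against −0.69. Leaving out each heart gave medians from −0.84 to −0.40, 0 to 2 markers past the threshold, 4 (without control 5) to 9 with an unadjusted p under 0.05, and 6 to 9 with no overlap between genotypes. Leaving out a heart cannot create an overlap, so the last count could only stay at 6 or rise. The shares of all tested genes given above, such as 9.43% with every mutant heart below every control heart, hold for all 6 hearts only. The count of all genes past the threshold was 40 (without mutant 10) to 198 (without mutant 5), with 52, 43 and 67 without control 2, 5 or 9, and 53 in the 4 hearts with chromosome Y transcripts. Genes never past the threshold changed sign, namely Fn1 (−0.15 to 0.017 with a heart left out, 0.017 without mutant 5), Itga2b (−0.15 to 0.19, with −0.15 without mutant 10 and −0.01 without control 2) and Stmn2 (−0.13 to 0.25, with −0.028 without mutant 8, −0.13 without control 9, −0.22 in the 4 hearts with chromosome Y transcripts and −0.032 without both control 2 and mutant 8). The cause was not tested. No paired analysis was possible because the genotypes share only the number 5. With 3 hearts a genotype, a spread as wide as that of Tyrobp or the C1q genes leaves intervals of over 1 log2 unit, and the p-values do not show that such genes were unchanged.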
